A study of Mus musculus with 15 samples.

Results

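Immediate-early genes are switched on within minutes of a stimulus, before any new protein is needed. They encode transcription factors of the AP-1 (Fos, Jun and Atf3), Egr and Nr4a families, phosphatases that turn the MAP kinases off again (Dusp), and proteins that shorten the life of messenger RNA (Zfp36 family). In T cells, Egr2 and Nr4a1 are known to follow signals of the T cell receptor. Heat-shock genes encode chaperones, proteins that fold other proteins, and heat-shock factors raise their transcription when unfolded protein accumulates. Both gene groups are also known to respond to the handling of tissue and cells.

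The 40 genes described here are named members of these families, taken by symbol from 45706 gene identifiers in the count table. They comprise 8 AP-1 genes, 3 Egr genes, 3 Nr4a genes, 6 Dusp genes, 10 other early genes and 10 heat-shock genes. Regulatory T cells (Tregs), which carry the transcription factor Foxp3, had been sorted from adult C57BL/6 mice through a Foxp3 reporter allele that all groups carry, and their RNA was sequenced in bulk. The mice were either RelB-dDC animals or littermate controls, and neither received a treatment that the labels name. The labels do not explain the line's name, which is read here as loss of RelB, an NF-kappaB subunit, in dendritic cells, and they do not name the promoter that drives it; "dDC" is used below. There were 3 control and 3 dDC libraries from spleen, 3 control and 2 dDC libraries from thymus, and 2 control and 2 dDC libraries from the peritoneal cavity. The labels do not say whether each library is 1 animal, so p-values measure the spread between libraries, which may be technical in part.

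Total counts lay between 15714286 and 24332044 per library. All 40 genes passed the filter on low counts, among 18423 genes tested. The library numbers in the labels are grouped by tissue, and the labels do not say what a number marks. Summed over 9 genes, Treg and T cell markers reached 7047 to 9327 CPM (counts divided by the library size, with TMM factors) in the peritoneal libraries and 9926 to 11660 CPM in the others, and all 9 had reads in every library. Markers of other cells were present as well. The 6 erythroid genes summed to 2396 to 7992 CPM in spleen, with the highest sum in spleen control 1. In thymus and peritoneal libraries they reached at most 398.5 CPM. The 8 B cell genes summed to between 1084 and 2250 CPM in peritoneal libraries, 344.9 to 1005 CPM in spleen and 42.86 to 89.17 CPM in thymus. The 10 macrophage and monocyte genes summed to 1618 CPM in peritoneal control 2, against 61 to 267.9 CPM in the other peritoneal libraries, 104.9 to 363.9 CPM in spleen and 3.332 to 29.99 CPM in thymus. Marco and C1qa were at 0 in every thymus library, and Fcgr1 was at 0 in every peritoneal library. The 7 dendritic cell genes summed to 215.3 CPM in peritoneal control 2 and to at most 47.27 CPM in any other library. RNA of such cells enters the values below, and its part in them was not tested.

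DNA around the starts of some members is shown because the genes are known by these elements. RefSeq windows on GRCm38.p6, from 250 bases before to 50 bases after a start, were found for 32 of the 40 genes. The letters searched on both strands were GAANNTTC or TTCNNGAA for a heat shock element of 2 units, GCGNGGGCG for an Egr site, TGANTCA for an AP-1 site and TGACGTCA for a cAMP response element, beside the 3-unit heat shock element and the CArG box of serum response factor. The 2-unit and 3-unit heat shock elements overlap by construction. Annotated exons covered 250 of the 250 bases before the start used for Hspe1, 218 for Dnaja1 and 40 for Hsph1. These exon bases include the matches printed for Hspe1, Dnaja1 and Hsph1. In the stretches below, read 5′ to 3′ on the gene's strand, capitals mark the match.
Hspa1a, heat shock element, chr17:34972242-34972271, minus strand: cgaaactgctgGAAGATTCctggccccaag
Hspe1, heat shock elements, chr1:55088053-55088082, plus strand: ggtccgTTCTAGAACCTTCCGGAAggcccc
Hsph1, heat shock element, chr5:149636351-149636380, minus strand: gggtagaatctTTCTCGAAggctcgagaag
Dnaja1, heat shock element, chr4:40722333-40722362, plus strand: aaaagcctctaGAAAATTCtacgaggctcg
Nr4a1, Egr site, chr15:101266776-101266805, plus strand: gcgtcagtggCGCCCCCGCccctctccatg
Dusp2, Egr site, chr2:127336051-127336080, plus strand: acgtgaagccGCGGGGGCGggcaccggcgc
Zfp36l1, AP-1 site, chr12:80113124-80113153, minus strand: gaccgcatggcTGATTCAacctcagtgtca
Dusp5, 2 adjacent CArG boxes, chr19:53529058-53529087, plus strand: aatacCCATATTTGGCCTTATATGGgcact

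A gene was counted where any of its windows held a match. The 3-unit heat shock element was found in 3 of the 32 genes (Hspd1, Hspe1 and Hsph1) and in 0.662% of all 27025 genes with a window. The 2-unit form was found in 9 members, 6 of them heat-shock genes, and in 17% of those 27025 genes. The Egr site was found in 10 members, among them Nr4a1, Nr4a2, Dusp2 and Gadd45b, and in 6.27%. CArG boxes were found in Egr2, Dusp5 and Zfp36 and in 1.81% of these genes, and cAMP response elements in Btg2 and Dusp1 and in 2.03%. The AP-1 letters, which allow any middle base, were found in Zfp36l1 alone of the members and in 8.97%. The middle base of the Zfp36l1 match is T. These matches describe letters, not binding. Hspa1a and Hspa1b share the stretch printed above: 159 of the 160 bases before their starts are identical, as are 99.1% of 2200 aligned transcript bases. How their reads were divided is therefore uncertain. The full 160 bases before the Hspa1a start, chr17:34972157-34972316 on the minus strand, show the element in its place.
Hspa1a, upstream: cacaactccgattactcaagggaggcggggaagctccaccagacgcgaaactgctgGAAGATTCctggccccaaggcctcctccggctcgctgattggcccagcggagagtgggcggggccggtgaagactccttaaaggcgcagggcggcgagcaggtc

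Levels per length of exon (RPKM, mean over 15 libraries) ranged widely among the members. Hsp90ab1, a constitutive cytosolic chaperone, was highest at 870 RPKM, followed by Zfp36, which promotes decay of AU-rich messenger RNA, at 278 RPKM. Btg1 and Btg2, antiproliferative factors, stood at 260 and 247 RPKM, Hspa8 at 163 RPKM and Klf6 at 162 RPKM. Fos was the highest AP-1 gene at 87.9 RPKM, and Fosl1 the lowest member at 0.182 RPKM. Egr3 at 0.263 RPKM and Atf3 at 0.752 RPKM were also near the floor. The median biological coefficient of variation was 0.333 for the 31 members above 20 CPM and 0.256 for all 7206 genes above that level. With no cut on level, it was 0.269 for the 10 heat-shock members, 0.425 for the other 30 and 0.551 for all tested genes.

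The first comparison asks how these genes differ between Tregs of the peritoneal cavity and Tregs of spleen or thymus, within each genotype. Egr2 was far lower in peritoneal Tregs in both genotypes, the AP-1 gene Fosl2 was higher than in spleen, and Zfp36l1 was lower than in thymus. In controls, peritoneal against spleen, 1 of the 40 members rose (0.293% of all tested genes were called higher) and 1 fell (0.499% called lower). In dDC mice 2 rose (0.483%) and 2 fell (0.423%). Against thymus, no member rose and 3 fell in controls (1.34% of genes higher, 1.13% lower), and 1 rose and 3 fell in dDC mice (0.765% higher, 0.586% lower). At an unadjusted p under 0.05, of either sign, these comparisons held 7, 12, 13 and 10 members in that order, against 10.6%, 8.64%, 14.1% and 11.3% of all tested genes. The comparisons against spleen and thymus share the peritoneal libraries.

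Egr2, a zinc finger transcription factor linked to T cell receptor signals and tolerance, lies on chromosome 10 from 67535475 to 67542188 on the plus strand (mm10, as all coordinates here). Its level was 94.4, 67.3 and 78.8 CPM in the spleen controls and 47.6, 60.6 and 71.0 CPM in the spleen dDC libraries. In thymus it was 58.0, 70.7 and 103 CPM in controls and 48.4 and 51.2 CPM in dDC libraries. The peritoneal controls held 2.64 and 6.08 CPM, and the peritoneal dDC libraries 1.70 and 0.111 CPM, the last of which rests on 2 reads. Every peritoneal library was below every other library, so the tissues did not overlap in either genotype. In controls, Egr2 was 18.5-fold lower in peritoneal than in spleen Tregs (log2 difference -4.21 ± 0.69 SE, adjusted p = 0.0194) and 17.8-fold lower than in thymus Tregs (-4.15 ± 0.69, adjusted p = 0.00781). In dDC mice, the log2 differences were -6.02 ± 0.78 against spleen (adjusted p = 0.00372) and -5.75 ± 0.78 against thymus (adjusted p = 0.00348). The drop in Egr2 against spleen in controls lost its call when spleen control 1, peritoneal control 1 or peritoneal control 2 was left out (highest adjusted p = 0.0898), whereas the other 3 comparisons kept it without any single library of the groups compared. The size in dDC mice rested on single libraries: without peritoneal dDC 1, which leaves the library with 2 reads, the log2 differences were -8.99 against spleen and -8.73 against thymus, and without peritoneal dDC 2 they were -5.13 and -4.86. The Treg and T cell markers, given above as sums, were not all alike in the peritoneal libraries. Foxp3 was at 199.2 to 320 CPM there and 178.6 to 256 CPM in spleen, whereas Lck was at 1273 to 1657 CPM against 2291 to 2637 CPM in spleen, and Trac at 1508 to 1763 CPM against 2308 to 2790 CPM. In bulk RNA, fewer cells that express a gene and less of it per cell cannot be told apart.

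The other Egr genes passed no test between the peritoneal cavity and another tissue in either genotype. Egr1, a zinc finger factor induced by MAP kinase signals, was at 88.05 ± 30.18 CPM in spleen controls (SD, n = 3) and at 11.6 and 51 CPM in peritoneal controls, a log2 difference of -1.49 ± 0.73 (adjusted p = 0.497). In dDC mice the same difference was -1.67 ± 0.74 (adjusted p = 0.547). Egr3 had at most 35 reads in a library and supports no comparison.

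The Nr4a genes encode orphan nuclear receptors of the early response. Nr4a1 (chromosome 15, 101266846 to 101274792, plus strand) was at 90.1, 158 and 117 CPM in spleen controls and 77.0, 115 and 70.9 CPM in spleen dDC libraries. In thymus it stood at 178, 315 and 294 CPM in controls and 220 and 232 CPM in dDC libraries. The peritoneal controls held 23.0 and 106 CPM and the peritoneal dDC libraries 8.70 and 21.6 CPM. Thymus libraries were thus above all others, and the peritoneal pair of each genotype below its thymus libraries. In edgeR the call was made in dDC mice, where Nr4a1 was 14.9-fold lower in peritoneal than in thymus Tregs (log2 difference -3.90 ± 0.67, adjusted p = 0.0134). In controls the log2 difference was -2.02 ± 0.58 (adjusted p = 0.109), but without peritoneal control 2 it was -3.51 and called (adjusted p = 0.0225). DESeq2 and limma-voom called Nr4a1 in controls with all libraries (adjusted p = 0.00214 and 0.0284). Against spleen in dDC mice, the edgeR log2 difference of Nr4a1 was -2.54 (adjusted p = 0.0956). DESeq2 called that difference (adjusted p = 7.83e-05), and limma-voom did not.

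Nr4a3, another receptor of the family, is named because edgeR called it once, after its values were seen. DESeq2 called Nr4a3 lower in peritoneal than in thymus Tregs in controls (adjusted p = 2.55e-07) and dDC mice (adjusted p = 0.000805). Against spleen, DESeq2 called Nr4a3 lower in controls (adjusted p = 0.00154), where edgeR did not (adjusted p = 0.146). With all libraries, limma-voom called Nr4a3 in no comparison. It was at 17.5, 28.2 and 33.8 CPM in thymus controls and 1.71 and 0.570 CPM in peritoneal controls, a 22.9-fold lower level (log2 difference -4.52 ± 0.91, adjusted p = 0.0237). In dDC mice it was at 27.0 and 24.1 CPM in thymus and 3.30 and 1.33 CPM in the peritoneal cavity (log2 difference -3.46 ± 0.89, adjusted p = 0.0959). The groups did not overlap in either genotype. The stability given next is that of the edgeR calls. Neither Nr4a call was stable: that of Nr4a1 was lost without thymus dDC 1 or either peritoneal dDC library (highest adjusted p = 0.118), and that of Nr4a3 without thymus control 2, thymus control 3 or peritoneal control 2 (highest adjusted p = 0.21).

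Fosl2 (Fra-2), an AP-1 subunit that pairs with Jun proteins, lies on chromosome 5 from 32135801 to 32157842 on the plus strand. It was at 9.02, 8.74 and 7.74 CPM in spleen controls and 9.56, 11.9 and 2.86 CPM in spleen dDC libraries. Thymus controls held 58.2, 21.6 and 28.0 CPM and thymus dDC libraries 20 and 41.0 CPM. Peritoneal controls held 82.2 and 52.4 CPM and peritoneal dDC libraries 106 and 66.2 CPM. All 6 spleen libraries were below all others. Fosl2 was 7.92-fold higher in peritoneal than in spleen Tregs of controls (log2 difference 2.99 ± 0.57, adjusted p = 0.0398) and 10.6-fold higher in dDC mice (3.41 ± 0.58, adjusted p = 0.0186). Both calls depended on single libraries. In controls, the call was lost without any 1 of the 5 libraries compared, with log2 differences of 2.62 to 3.28 and adjusted p up to 0.132. In dDC mice it was lost without spleen dDC 1, spleen dDC 3, peritoneal dDC 1 or peritoneal dDC 2 (adjusted p up to 0.115) and kept without spleen dDC 2, where the difference was 3.80 (adjusted p = 0.048).

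The other 7 AP-1 genes passed no tissue test. Fos, the prototype of the family, ranged from 23.9 CPM in spleen control 3 to 562 CPM in peritoneal control 2. Jun ranged from 8.35 CPM in spleen dDC 3 to 177 CPM in thymus control 1. Jund, the least variable AP-1 gene, stayed between 14.9 and 33.6 CPM. Atf3, a stress-induced partner of Jun, had 306 reads (19.4 CPM) in peritoneal control 2, 77 reads (4.11 CPM) in spleen dDC 1 and at most 11 reads in any other library. Peritoneal control 2 is also the library with 1187 CPM of the macrophage gene Lyz2, against at most 189.7 CPM elsewhere.

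The stretch of Zfp36l1 that matches the AP-1 letters is printed above. Zfp36l1, an RNA-binding protein that promotes messenger RNA decay, lies on chromosome 12 from 80107760 to 80113013 on the minus strand. It was at 107, 122 and 114 CPM in spleen controls and 121, 146 and 89.8 CPM in spleen dDC libraries. In thymus it was at 172, 167 and 227 CPM in controls and 177 and 159 CPM in dDC libraries. Peritoneal controls held 57.1 and 61.5 CPM and peritoneal dDC libraries 58.0 and 59.7 CPM, so thymus was above spleen and spleen above the peritoneal cavity, with no overlap. Against thymus, Zfp36l1 was 3.18-fold lower in peritoneal Tregs of controls (log2 difference -1.67 ± 0.21, adjusted p = 0.00134) and 2.85-fold lower in those of dDC mice (-1.51 ± 0.22, adjusted p = 0.00505). The dDC call was lost without peritoneal dDC 2 (adjusted p = 0.0611). Against spleen, Zfp36l1 differed by -0.94 ± 0.20 in controls (adjusted p = 0.0587) and fell by 1.02 ± 0.20 on the log2 scale in dDC mice (adjusted p = 0.0388), a call lost without spleen dDC 1, spleen dDC 2 or either peritoneal dDC library (adjusted p up to 0.308). An antisense gene, Gm26669, covers 56.0% of its exons and had at most 123 reads in a library.

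Klf6, a zinc finger factor of the early response, was called by edgeR in dDC mice, by DESeq2 in both genotypes, and is named after its values were seen. It stood at 471, 265 and 276 CPM in spleen dDC libraries, 299 and 443 CPM in thymus dDC libraries, and 1610 and 1910 CPM in peritoneal dDC libraries. In controls it was at 313, 547 and 324 CPM in spleen, 814, 294 and 481 CPM in thymus, and 1080 and 1150 CPM in the peritoneal cavity. The peritoneal libraries were the 4 highest of all 15. Klf6 was 5.21-fold higher in peritoneal than in spleen Tregs of dDC mice (log2 difference 2.38 ± 0.39, adjusted p = 0.0175) and 4.74-fold higher than in their thymus Tregs (2.24 ± 0.45, adjusted p = 0.0327). The control differences were 1.5 ± 0.39 (adjusted p = 0.133) and 1.07 ± 0.39 (adjusted p = 0.216), with DESeq2 adjusted p of 0.00192 and 0.038, and the difference between genotypes was not called. The call against spleen was lost without spleen dDC 2, spleen dDC 3 or either peritoneal dDC library (adjusted p up to 0.136), and the call against thymus without any 1 of its 4 libraries (up to 0.298).

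**Figure D1:**
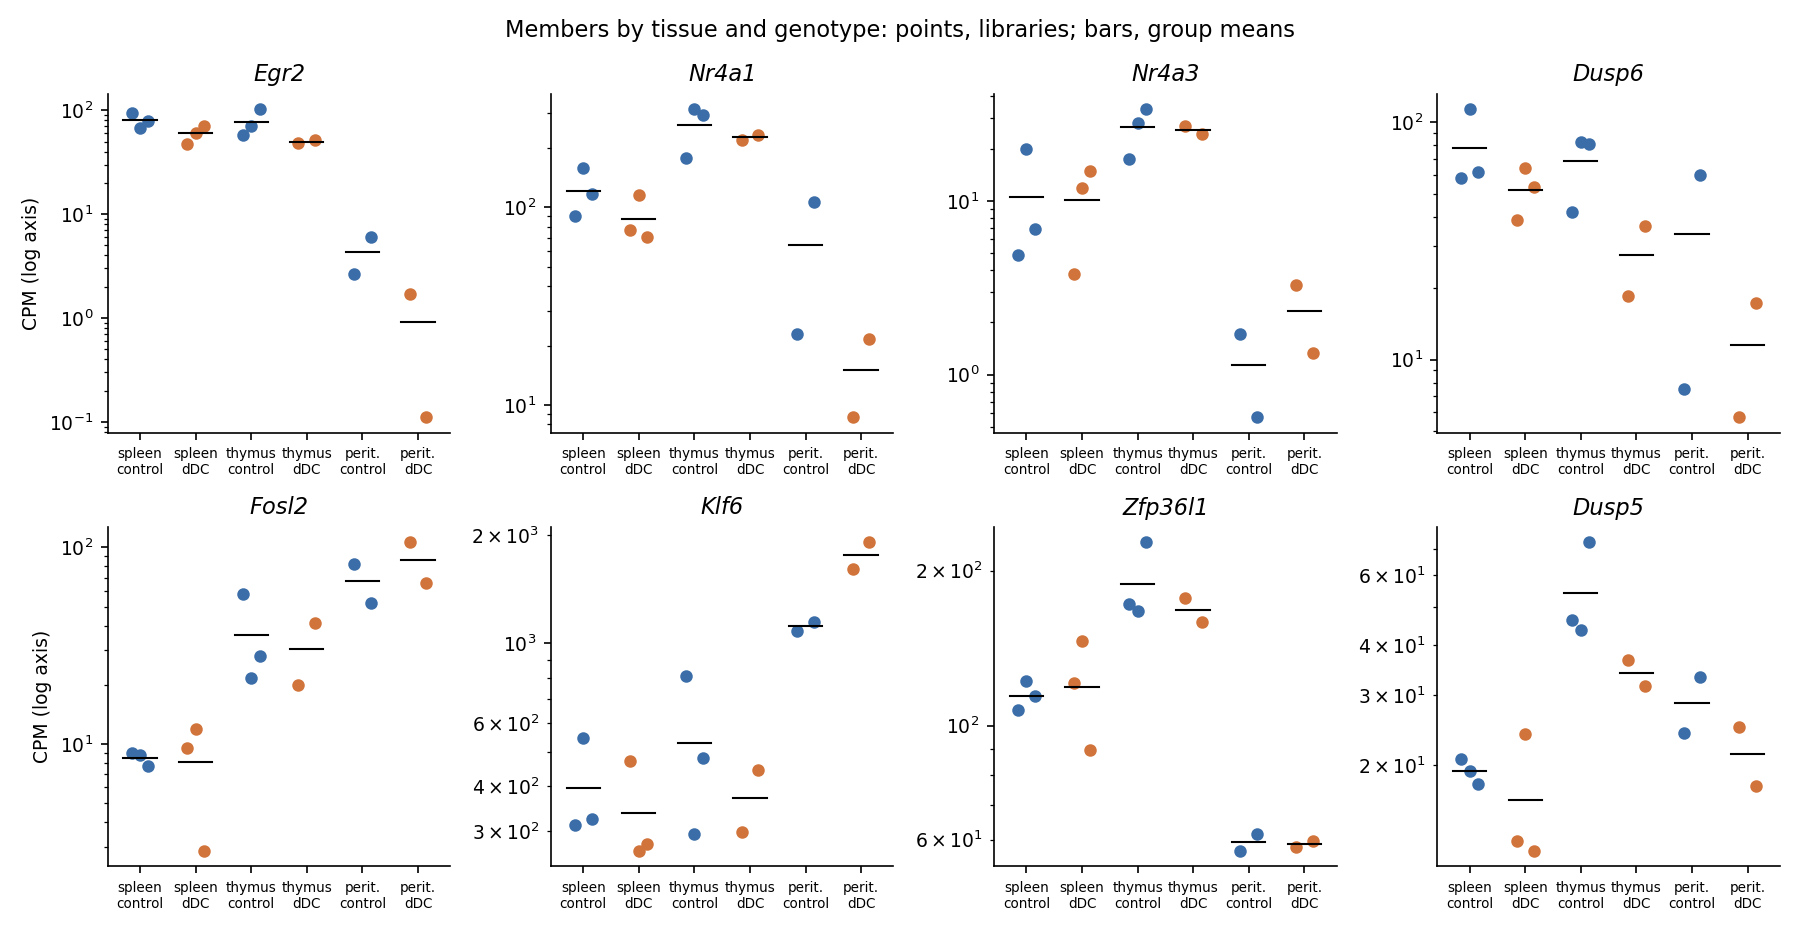
TMM-scaled CPM (log axis) of 8 members in the 6 groups of tissue and genotype; each point is a library (blue, control; orange, dDC) and each bar a group mean. Egr2 lies at 47.6 to 103 CPM in spleen and thymus and at 0.111 to 6.08 CPM in the peritoneal cavity, while the 4 peritoneal libraries hold the most Klf6.

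The Dusp genes passed no edgeR test between the peritoneal cavity and another tissue. DESeq2 called Dusp2, Dusp4 and Dusp6 lower than in spleen dDC libraries (adjusted p = 0.0112, 0.041 and 0.0372), Dusp2 and Dusp4 lower than in thymus dDC libraries (0.0208 and 0.000186), and Dusp4 lower than in thymus controls (0.01). Dusp2, a nuclear phosphatase of ERK and p38, was at 47.5, 60.1 and 40.8 CPM in spleen dDC libraries and 15.3 and 17.6 CPM in peritoneal dDC libraries (log2 difference -1.59 ± 0.45, adjusted p = 0.188). Dusp4, an inducible nuclear phosphatase, was at 10.6 and 20.5 CPM in thymus dDC libraries and 0.927 and 0.111 CPM in the peritoneal cavity (-4.88 ± 1.23, adjusted p = 0.0916). No heat-shock gene was called by edgeR between these tissues, with median log2 differences of -0.020 (controls) and -0.31 (dDC) against spleen and -0.74 and -0.37 against thymus. The medians over all tested genes were -0.029, -0.0087, -0.03 and 0.022. Without thymus control 1 the heat-shock median against thymus controls was -0.18, and without thymus dDC 2 that against thymus dDC libraries was -0.025. Against spleen controls it lay between -0.48 (without peritoneal control 1) and 0.20 (without spleen control 1).

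**Figure D2:**
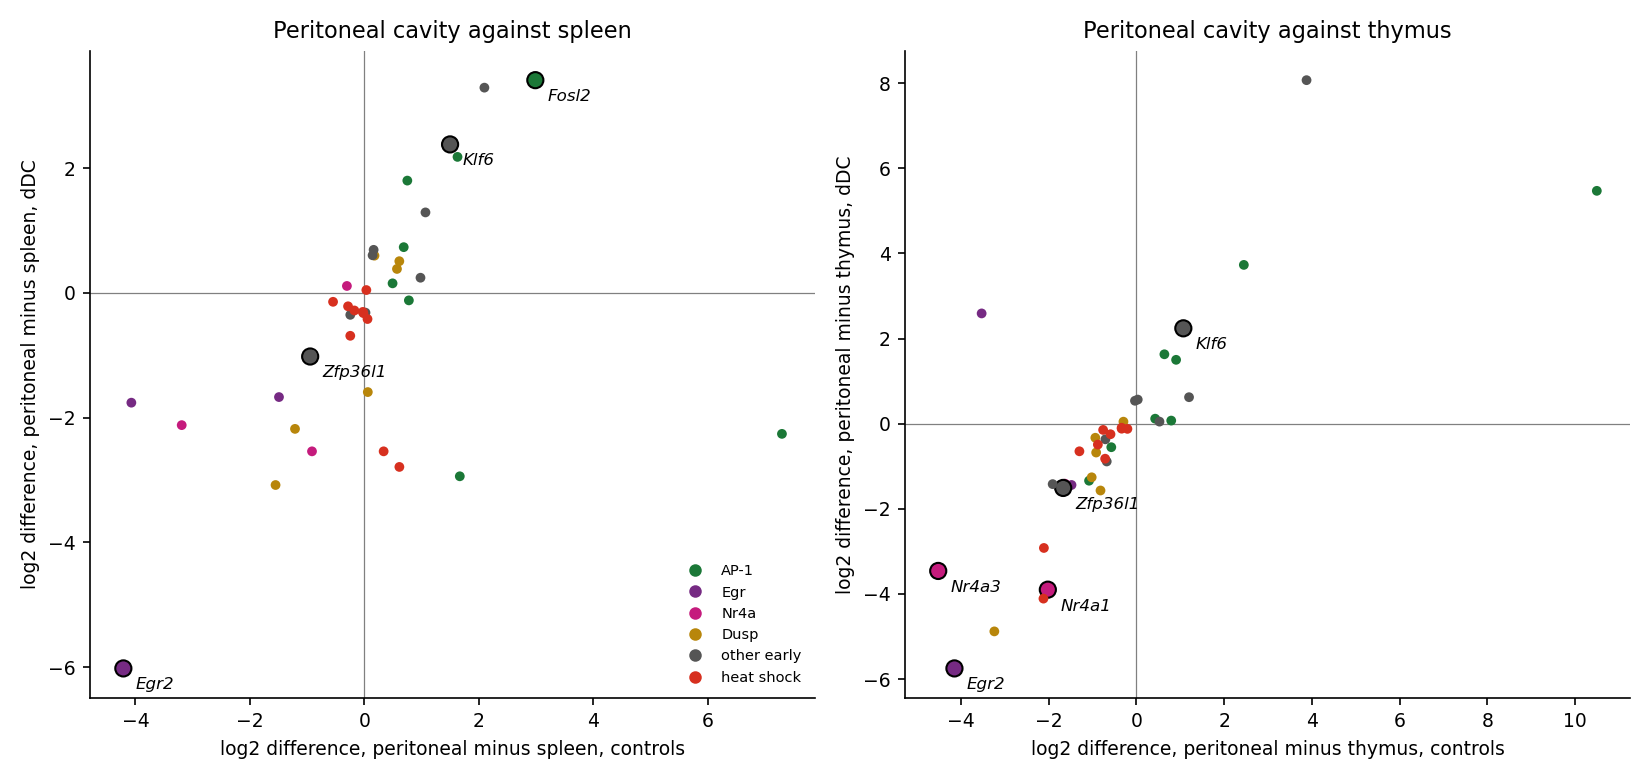
Log2 difference of each of the 40 members between peritoneal cavity and spleen (left) or thymus (right), controls on the x axis and dDC mice on the y axis, coloured by role; large outlined points were called in at least 1 genotype. Egr2 is at the lower left in both panels and Fosl2 at the upper right against spleen; the unnamed points far from the origin include Atf3, Fosl1, Egr3 and Ier3, which had few reads.

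Thymus against spleen gave no called member in controls (0.157% of tested genes called higher, 0.445% lower) or in dDC mice (0.0489% and 0.13%). In controls, 32 of the 40 log2 differences were positive, with a median of 0.52, against 49.4% of all tested genes and a median of -0.0021. At an unadjusted p under 0.05 there were 13 members in controls and 5 in dDC mice, against 9.79% and 7.75% of all tested genes. The 13 became 6 without spleen control 3 and 7 without thymus control 1 or thymus control 3, and the 5 became 2 without spleen dDC 3 and 3 without either thymus dDC library. DESeq2 called 4 in controls (Fosl2, Dusp5, Zfp36l1 and Hsp90aa1) and 1 in dDC mice (Fosl2), and limma-voom called none. Dusp5, a nuclear phosphatase of ERK whose CArG boxes are printed above, had the smallest p. It was at 20.7, 19.3 and 17.9 CPM in spleen controls and 46.4, 43.8 and 72.6 CPM in thymus controls, without overlap (log2 difference 1.49 ± 0.31, edgeR adjusted p = 0.0675). All 10 heat-shock differences were positive in controls, with a median of 0.52, but without thymus control 1 the count was 6 and the median 0.13. With that library left out, 29 of the 40 members were positive, with a median of 0.23.

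The next comparison asks whether Tregs of dDC mice differ from those of littermate controls. No member was called in spleen, thymus or the peritoneal cavity, in the average of the 3 tissues, or in a test of whether the genotype difference varied between tissues. Of all tested genes, 0% were called in spleen, 0% in thymus, 0.00543% in the peritoneal cavity and 0.076% in the average, and 0%, 0% and 0% in the 3 tests between tissues. At an unadjusted p under 0.05, edgeR held 1, 1, 3 and 8 members in the first 4 of these. The shares of all tested genes were 4.27%, 6.57%, 6.36% and 9.31%. In the tests between tissues (thymus against spleen, peritoneal cavity against spleen, peritoneal cavity against thymus) it held 0, 1 and 1 members. There the shares of all tested genes were 5.06%, 4.89% and 5.72%. DESeq2 called Egr2 in the average and Egr2 and Nr4a1 in the peritoneal cavity, and limma-voom called none.

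In the average, 11 of the 40 members were higher in dDC mice and 29 lower, with a median log2 difference of -0.33, against 47.9% of all tested genes higher and a median of -0.020. The 8 members with an unadjusted p under 0.05 (9.31% of all tested genes had such a p) were all lower in dDC mice: Egr2, Nr4a1, Btg1, Dusp6, Nr4a2, Dusp2, Egr1 and Dusp5. Without peritoneal control 2, 1 member had such a p, 15 were higher in dDC mice, and the median was -0.074. Without any 1 other library, 4 to 10 members had such a p, and the median lay between -0.49 and -0.19; the 4 were reached without thymus dDC 1, where 2 of them were lower in dDC mice, and 5 without spleen dDC 3, thymus control 3 or peritoneal dDC 1. With limma-voom, 4 members had such a p, and the median was -0.17. By tissue, 48.4% of all tested genes were higher in dDC mice in spleen, 46.2% in thymus and 50% in the peritoneal cavity. Their medians were -0.011, -0.031 and 0. Of the 40 members, 22 were lower in spleen (median -0.056), 33 in thymus (median -0.46) and 26 in the peritoneal cavity (median -0.23). In thymus, which no peritoneal library enters, the median of the members was -0.18 without thymus dDC 1 and -0.23 without thymus control 1. In the peritoneal cavity it was 0.096 without peritoneal control 2. In peritoneal control 2, 28 of the 30 early and AP-1 members were above their level in peritoneal control 1. The same share over all tested genes was not counted. Macrophage genes summed to 1618 CPM in peritoneal control 2 and to 61 CPM in peritoneal control 1. The part of those cells in the result was not tested.

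Egr2 showed the smallest p of the members in the average, a log2 difference of -1.10 ± 0.35 (adjusted p = 0.351). It was lower by 0.42 in spleen, 0.63 in thymus and 2.23 in the peritoneal cavity on the log2 scale, none of which passed. Without peritoneal control 2 the average was -0.86 (adjusted p = 0.682), and without peritoneal dDC 1 it was -2.09 (adjusted p = 0.0373), which leaves a single peritoneal dDC library with 2 reads of Egr2. Nr4a1 differed by -0.93 ± 0.32 (adjusted p = 0.398), and by -0.43 without peritoneal control 2.

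Dusp6, the cytoplasmic phosphatase of ERK, lies on chromosome 10 from 99263231 to 99267488 on the plus strand and had the smallest p of its family. It was at 58.4, 114 and 61.5 CPM in spleen controls and 38.9, 64.1 and 53.2 CPM in spleen dDC libraries. Thymus controls held 41.8, 82.7 and 81 CPM and thymus dDC libraries 18.6 and 36.6 CPM. Peritoneal controls held 7.53 and 60.1 CPM and peritoneal dDC libraries 5.72 and 17.3 CPM. The genotypes overlapped in spleen and the peritoneal cavity and not in thymus. The average log2 difference was -1.15 ± 0.42 (adjusted p = 0.432), and -0.43 without peritoneal control 2 (adjusted p = 0.887).

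By role, 0 of 6 Dusp genes, 0 of 3 Egr genes, 1 of 3 Nr4a genes, 2 of 8 AP-1 genes and 2 of 10 other early genes had a positive average difference. Among the heat-shock genes it was 6 of 10, with a median of 0.12. Zfp36l1, Klf6 and Fosl2, which differed between tissues, had average genotype differences of -0.041 ± 0.11, -0.028 ± 0.23 and 0.018 ± 0.33. Jund and Btg2 were likewise near 0, at 0.033 ± 0.17 and 0.067 ± 0.13. For Klf6 and Btg2, such an average joins opposite signs. Mean Klf6 was 1115 CPM in peritoneal controls and 1758 CPM in peritoneal dDC libraries. From control to dDC, it went from 394.8 to 337.6 CPM in spleen and from 529.8 to 370.8 CPM in thymus. Mean Btg2 went from 683.5 to 907.9 CPM in the peritoneal cavity, 617.5 to 597.6 CPM in spleen and 699.2 to 625.1 CPM in thymus. None of these differences was called.

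**Figure D3:**
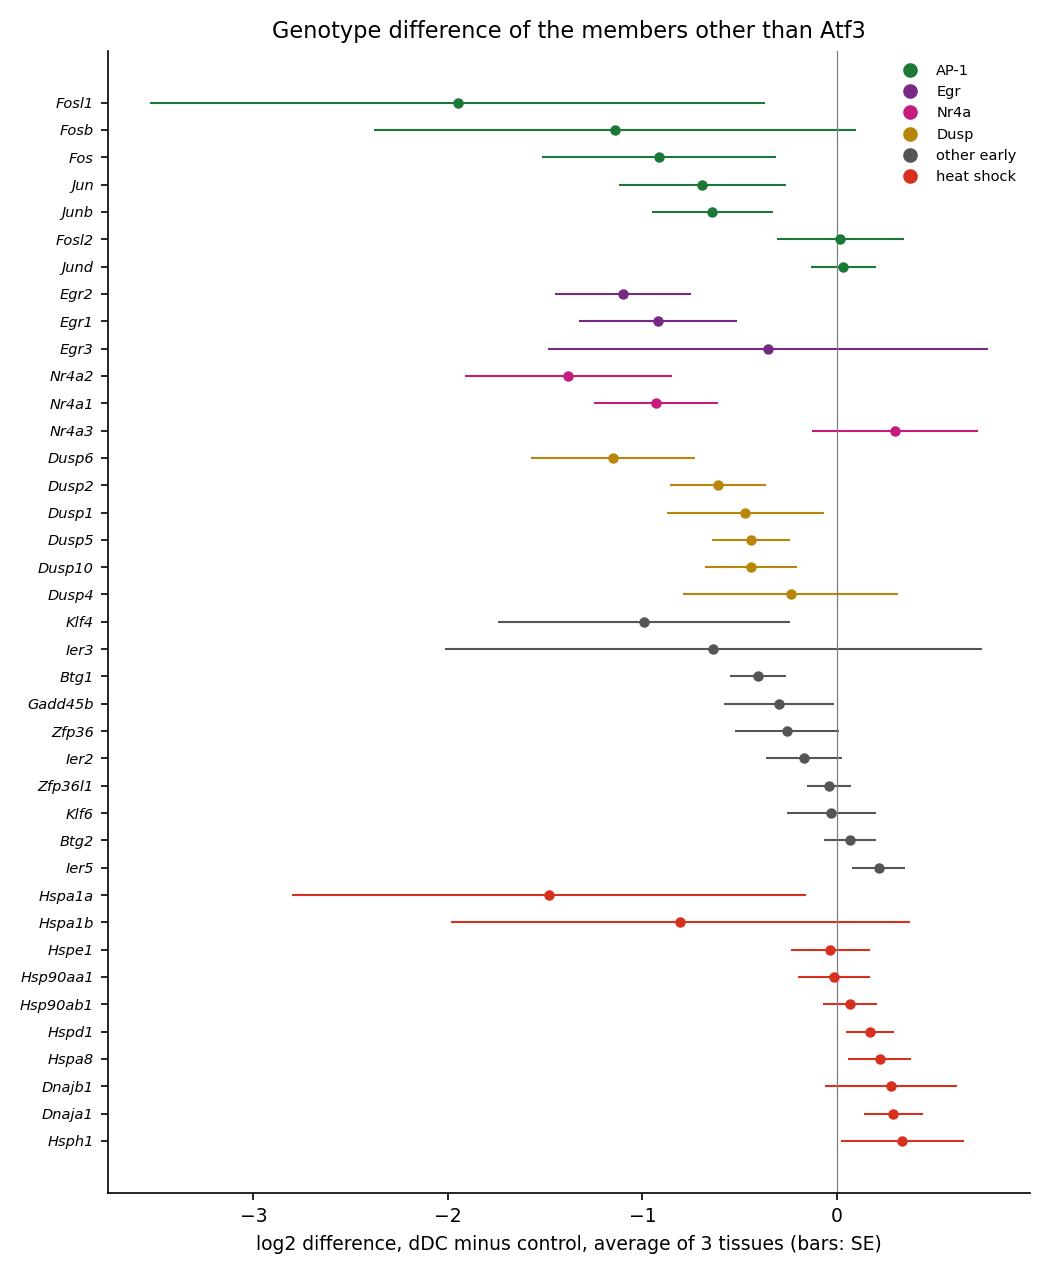
Log2 difference between dDC and control libraries, averaged over the 3 tissues, for the members other than Atf3 (points; bars, SE), grouped and coloured by role. Atf3 is left out because its reads lie almost all in 2 libraries; no member passed the test, and all 6 Dusp genes lie below 0.

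Dnaja1, an Hsp40 co-chaperone of Hsc70, had the smallest p among heat-shock members in the average. It lies on chromosome 4 from 40722150 to 40737149 on the plus strand. It was at 255, 165 and 184 CPM in spleen controls and 263, 319 and 340 CPM in spleen dDC libraries. In thymus it stood at 379, 197 and 325 CPM in controls and 239 and 345 CPM in dDC libraries. Peritoneal controls held 206 and 193 CPM and peritoneal dDC libraries 232 and 259 CPM. The genotypes did not overlap in spleen or the peritoneal cavity, but overlapped in thymus. The average difference was 0.29 ± 0.15 (adjusted p = 0.598), and in spleen 0.61 ± 0.24 (unadjusted p = 0.0252, adjusted p = 1). On the opposite strand, Smu1 shares 608 exon bases with Dnaja1, and the library chemistry does not mark the strand.

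In spleen, 48.4% of all tested genes were higher in dDC libraries, with a median log2 difference of -0.011. All 10 heat-shock genes were higher there, with a median of 0.36, and none passed the test. Leaving out spleen control 2 brought the count to 7 and the median to 0.095, while without spleen control 1 they were 10 and 0.66.

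In 4 of the 6 groups, a single library had the highest level of 9 or all 10 heat-shock genes. For these counts and those below, how often a library was highest over all tested genes was not counted. Hspa1a and Hspa1b, whose reads were divided in an uncertain way, are 2 of the 10. Spleen control 1 and thymus control 1 each had the highest level of their group for all 10 genes, and thymus control 2 the lowest of its group for all 10. Thymus dDC 2 and peritoneal control 1 were the higher of their pairs for 9 of 10. The other 2 groups were mixed: the spleen dDC libraries were highest for 3, 6 and 1 of the 10 genes, and peritoneal dDC 2 was the higher of its pair for 7. Hspa1a, the stress-inducible Hsp70, was at 27.7, 0 and 0 CPM in spleen controls and 36.3, 2.84 and 0.631 CPM in spleen dDC libraries. It was at 164, 4.25 and 15.3 CPM in thymus controls, 13.1 and 15.9 CPM in thymus dDC libraries, 22.5 and 5.70 CPM in peritoneal controls, and 3.19 and 0.611 CPM in peritoneal dDC libraries. The 2 spleen controls without a read allow up to 3 counts each. Hspa1b was highest in the same library as Hspa1a, thymus control 1, at 124 CPM, and Dnajb1, its Hsp40 partner, was at 429, 77.7 and 168 CPM in thymus controls. The constitutive chaperones moved less: Hspa8 (Hsc70) ranged from 437 to 988 CPM and Hsp90ab1 from 1800 to 3590 CPM over all libraries. Hspd1 and Hspe1, the mitochondrial chaperonin pair, ranged from 114 to 189 CPM and from 49.1 to 185 CPM; they lie head to head, share 112 exon bases, and have annotated pseudogene copies.

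The early genes and the heat-shock genes were high in different libraries in some groups and in the same library in others. Thymus control 1, with the highest level of all 10 heat-shock genes in its group, was highest for 10 of the 30 early and AP-1 members and lowest for 12. Peritoneal control 2 was the higher of its pair for 28 of those 30 and the lower for 9 of 10 heat-shock genes. Spleen control 2 had the highest Fos of its group (503 CPM, against 109 and 23.9 CPM) and the highest Klf4 (49.2 CPM, against 2.45 and 1.22 CPM), and was lowest for 8 of 10 heat-shock genes. In the dDC pairs the sets went the same way: thymus dDC 2 was the higher for 9 of 10 heat-shock and 22 of 30 early and AP-1 genes, and peritoneal dDC 2 for 7 of 10 and 19 of 30.

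**Figure D4:**
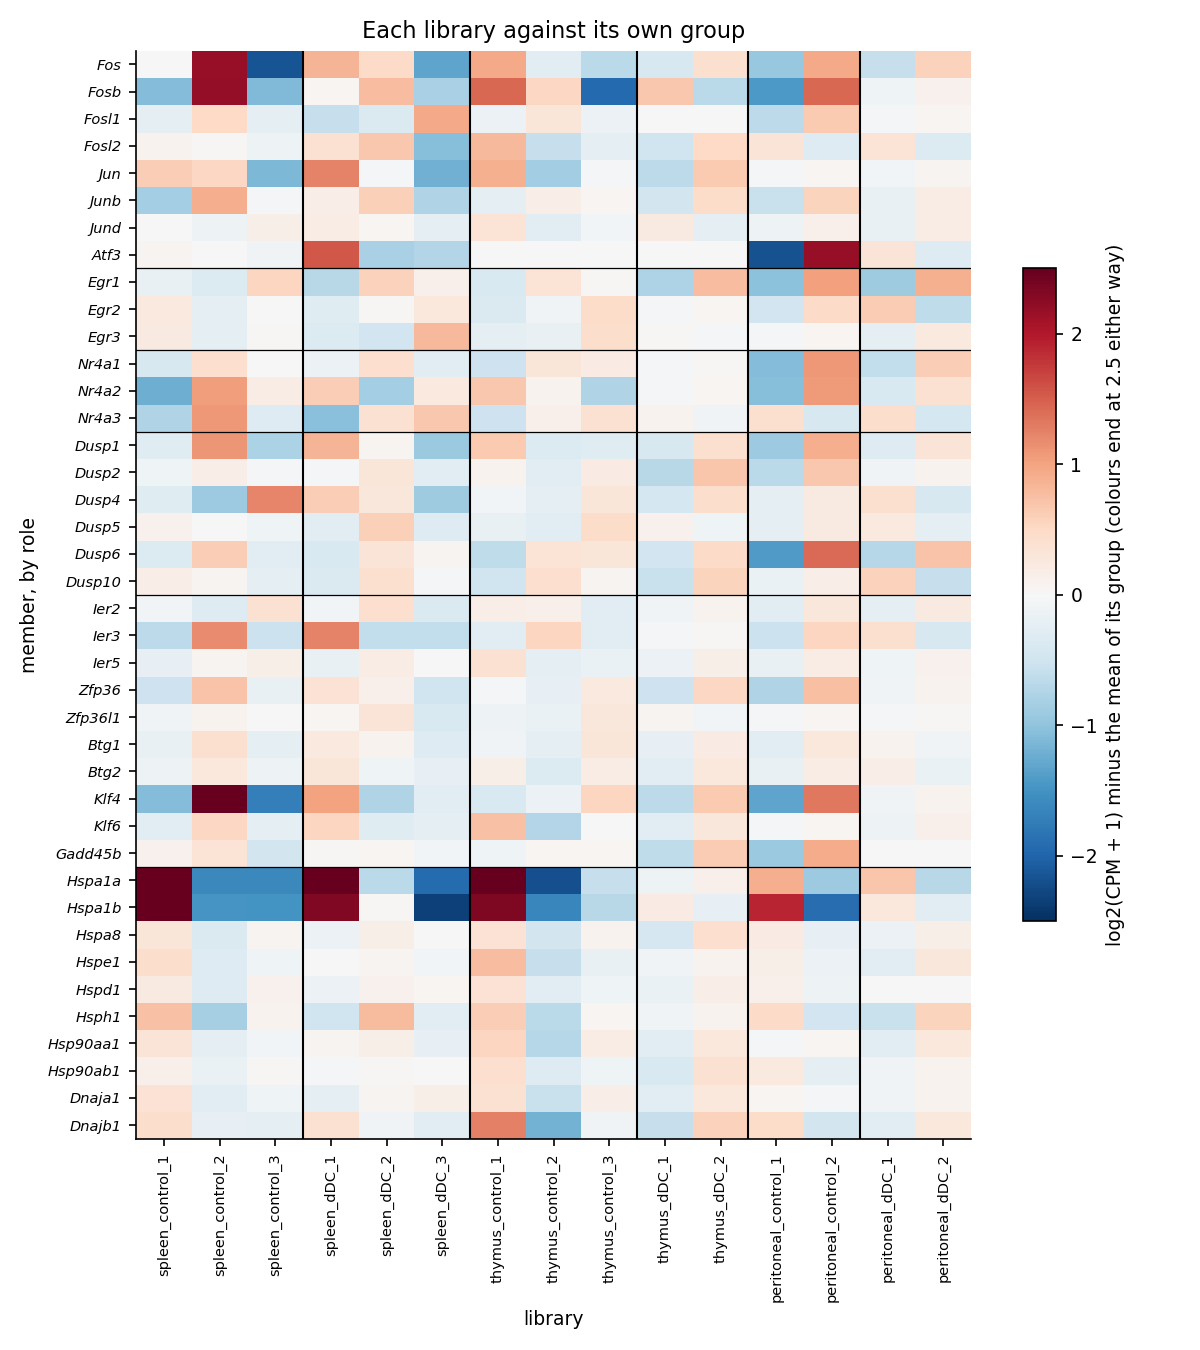
Log2(CPM + 1) of the 40 members (y axis, by role) in each of the 15 libraries (x axis), minus the mean of the library's own group; red is above and blue below, and colours end at 2.5. The heat-shock genes are red throughout in spleen control 1 and thymus control 1, and the early genes are mostly red in peritoneal control 2.

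Other genes of these pathways were counted over lists chosen by function. Among 28 tested other immediate-early genes, 3 rose and 1 fell in peritoneal against spleen Tregs of controls, and 3 rose and 1 fell in dDC mice. Rgs1, which damps G protein signalling, was 3.89-fold lower in controls (log2 difference -1.96 ± 0.23, adjusted p = 0.00283) and 3.15-fold lower in dDC mice (-1.66 ± 0.23, adjusted p = 0.00498). Pim1, a survival kinase, was 3.52-fold higher in controls (1.81 ± 0.22, adjusted p = 0.00332) and 3.16-fold higher in dDC mice (adjusted p = 0.00423). Crem, a factor that binds cAMP response elements, was 5.77-fold higher in controls (adjusted p = 0.0259). In dDC mice Crem was at 467.7 and 320.4 CPM in peritoneal libraries and 83.51, 53.65 and 39.14 CPM in spleen libraries. Tnfaip3, an NF-kappaB inhibitor, was 5.46-fold higher in dDC mice (adjusted p = 0.00859). In controls Tnfaip3 was at 303.3 and 204.6 CPM in peritoneal libraries and 81.38, 188.8 and 78.52 CPM in spleen libraries.

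Against thymus, 3 of the 28 rose and 2 fell in controls, and 1 rose and 1 fell in dDC mice. Rgs1 was 9.14-fold lower in controls (adjusted p = 0.000114) and 5.95-fold lower in dDC mice (adjusted p = 0.000429). Klf2, a factor of resting T cells, was 2.60-fold higher in controls (adjusted p = 0.0223). Pim1 was 2.07-fold higher in controls (adjusted p = 0.0273) and 2.32-fold higher in dDC mice (adjusted p = 0.0327). Between thymus and spleen in controls, Rgs1 alone rose (2.35-fold, adjusted p = 0.0136). Of 23 regulators of these genes, 2 fell in peritoneal against spleen controls, and 1 rose and 1 fell against thymus controls. In thymus against spleen controls 1 fell. None of the 23 was called between tissues in dDC mice. Batf, an AP-1 partner of effector Tregs, was 2.72-fold lower in peritoneal than in spleen controls (adjusted p = 0.0135) and 2.36-fold lower than in thymus controls (adjusted p = 0.0133). Maf, an AP-1 related factor, was 2.30-fold lower in peritoneal (adjusted p = 0.0398) and 2.06-fold lower in thymus controls (adjusted p = 0.0404) than in spleen, and Mapk14, the p38 alpha kinase, was 2.97-fold higher in peritoneal than in thymus controls (adjusted p = 0.0295).

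Of 25 other cytosolic chaperones and heat-shock factors, 14 other dual-specificity phosphatases and ERK inhibitors, and 20 chaperones of the endoplasmic reticulum and mitochondria, only Calr (calreticulin) was called between tissues, 2.06-fold lower in peritoneal than in spleen controls (adjusted p = 0.0199). No gene of the 5 lists was called in the average genotype comparison, where the list medians lay between -0.13 and 0.15.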

How the data were processed

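Messenger RNA of sorted Foxp3+ Tregs was measured in 15 libraries. RNA was, per the labels' protocols, extracted on micro-scale columns, copied from a poly-dT primer with template switching, amplified, sheared and made into libraries whose chemistry does not mark the strand. Reads of overlapping genes on opposite strands therefore cannot be told apart. The submitters' processing notes name bcl2fastq 2.19.1, the aligner GSNAP, the read counter featureCounts 1.6.0 and the build mm10. How reads with several matching places were counted is not given in the sources used here, and no molecular identifiers are named, so floors cover counting error only.

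The authors deposited raw read counts for each gene in each library. Symbols came from GENCODE M21 and matched 45143 of 45706 identifiers (98.8%), which hold 99.93% of the reads. The 92 spike-in features, with at most 6 reads in a library, were left out. Genes were kept with filterByExpr on the 6 groups. One edgeR 4.0.16 quasi-likelihood model (R 4.3.3; robust, TMM factors, 1 mean per group, 9 residual degrees of freedom) was fitted to all libraries, and contrasts were tested two-sided with Benjamini-Hochberg adjustment over all 18423 genes at a threshold of 0.05. Adjusted p-values are from this test unless another tool is named. CPM used the library sizes over tested genes times the TMM factors, and RPKM divided it by the exon length in the deposited table. The script was tested on simulated data.

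Alternatives were DESeq2 1.42.0, limma-voom (limma 3.58.1), other scalings, no filter, a fit of only the groups compared, a block of neighbouring library numbers, and leaving out each library. Where a fit without 1 library left a single library in a group, that library was assumed to vary like the other groups. The 40 genes, the pathway and marker lists and the tests were chosen with earlier results of these data known. All members are accounted for. Values of every library are given for members called in the same direction in both genotypes for a pair of tissues, or called in a genotype test. For a role group with none of these, they are given for the member with the smallest p in the average genotype comparison. Library values outside this rule, among them those of Nr4a3, Klf6, Hspa1a, Dusp2, Dusp4 and Dusp5, were chosen with the values known. Genes outside the members are named for up to 3 per list and comparison with the smallest adjusted p past the threshold.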

Additional observations from a re-analysis of the deposited data

How the results depend on the processing

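Scaling by RLE factors or by library totals, and leaving out the filter on low counts, changed no count of called members by more than 1.5 times, and no called member changed sign under any alternative. DESeq2 called more members. In controls it called 4 higher in thymus against spleen, 2 higher and 3 lower in peritoneal cavity against spleen, and 1 higher and 6 lower against thymus. In dDC mice it called 1 higher in thymus against spleen, and 6 and 7 lower in peritoneal cavity against spleen and thymus. The 7 include Ier5 (log2 difference -0.897, DESeq2 adjusted p = 0.0321). For dDC against control, DESeq2 called 2 lower in the peritoneal cavity and 1 lower in the average. With limma-voom, 0 were called higher in peritoneal against spleen controls and 1 lower in peritoneal against spleen dDC libraries. Against thymus controls, limma-voom called Egr2, Nr4a1, Zfp36l1 and Gadd45b lower in the peritoneal cavity. For Gadd45b there, adjusted p was 0.0423 with limma-voom and 0.00371 with DESeq2. The edgeR log2 difference was -1.91 ± 0.52 (adjusted p = 0.092). With only the libraries of the groups compared, which leaves fewer samples to estimate the spread, 1 member (Klf6, adjusted p = 0.0478) was called higher in peritoneal against spleen dDC libraries, and 0 members in all other tissue comparisons, either way.

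Leaving out 1 library of the groups compared at a time gave 0 to 0 higher and 0 to 1 lower members for peritoneal against spleen controls, and 0 higher and 2 to 4 lower against thymus controls, where leaving out peritoneal control 2 ended the call of Nr4a3 and added Nr4a1 and Gadd45b (adjusted p = 0.0225 and 0.0195). All groups share an estimate of the spread, so libraries of other groups moved calls too: without spleen dDC 3, Fosl2 was called higher and Egr2 and Zfp36l1 lower in peritoneal against spleen controls (adjusted p = 0.0186, 0.0362 and 0.0394), and over the 10 such libraries 1 to 3 members were called there. In dDC mice it gave 0 to 1 higher and 1 to 2 lower against spleen, and 0 to 0 higher and 1 to 3 lower against thymus. For dDC against control it gave 0 to 1 lower in the peritoneal cavity (Nr4a1 without peritoneal control 1, adjusted p = 0.0323) and 0 to 1 in the average (Egr2 without peritoneal dDC 1). The cause of these changes was not tested. The labels give no shared replicate numbers. With neighbouring library numbers as a replicate block, 0 members were called in the genotype comparisons, as without it, and 14 of the 40 average differences were positive. Groups of 2 and 3 libraries limit what can be resolved, most of all for Fosl1, Egr3, Atf3, Fosb and Ier3, which had few reads.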
